A study of Mus musculus with 16 samples.

Results

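The lysosome and V-ATPase genes described here are 44 of the 39057 rows of a gene count table from mouse brain endothelial cells. They were chosen by name and not by a rule on their counts, although earlier results of these data were known. They encode lysosomal membrane proteins, hydrolases, subunits of the vacuolar proton pump (V-ATPase) and the TFEB-family transcription factors that regulate them. Rows were matched to gene symbols through GENCODE mouse release 21 (GRCm38), and all 44 genes were found and tested. They fall into 9 groups by role.

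Lysosomes are the acidic compartments in which cells break down material taken up from outside, delivered by autophagy or sorted from the Golgi. The V-ATPase acidifies them: its cytosolic V1 sector hydrolyzes ATP, and its membrane V0 sector carries protons into the lumen, where acid hydrolases work on proteins, glycans and lipids. TFEB, TFE3 and MITF are related transcription factors that bind the E-box CACGTG in the promoters of many of these genes and enter the nucleus when mTORC1 is inactive. In brain endothelial cells, the endothelium of the blood-brain barrier, lysosomes receive part of the material taken up from blood and from the brain side, and apoE-containing lipoproteins taken up by receptors are unloaded there.

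The study asked how human *APOE* genotype shapes the transcriptome of these cells. Cells were isolated from the cerebral cortex of targeted replacement mice, in which human *APOE3* or *APOE4* is expressed from the mouse Apoe promoter in every cell type that uses it, so both groups carry a human gene in place of the mouse gene and no mouse *Apoe* control was included. There were 8 *APOE3* and 8 *APOE4* libraries, each from the cells of 1 animal grown in 1 well, with 4 males and 4 females per genotype. The mice were 21 to 28 days old per the sample labels. All cultures were exposed to puromycin at 8 μg/ml, which selects for endothelial cells, and were otherwise untreated. Poly-A RNA was sequenced, and replicates are named by the numbers in their labels.

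Total counts were 12717847 to 18624417 per library and did not separate the genotypes (p = 0.758, exact permutation test, two-sided). Human APOE, the replaced gene, had 1003 to 1425 CPM (counts scaled to the size of the library) in *APOE3* and 609 to 1013 in *APOE4* libraries, a measure that does not tell the 2 alleles apart. All 20 brain endothelial markers were tested, and their summed level was 20389 to 21649 CPM in *APOE3* and 19936 to 22086 in *APOE4* libraries, with Emcn called higher and Slco1c1 and Slc7a5 lower. Of 20 microglia and macrophage markers, cells rich in lysosomes, 12 had 3 counts or fewer in every library, with P2ry12, Itgam, C1qa, C1qc, Trem2 and Tyrobp at 0, and the list summed to 78.2 to 99.4 and 90.4 to 129 CPM, of which Cd14 alone was 51.4%. Cd14 was the 1 gene of this list that was called, with means of 42.9 CPM in *APOE3* and 58.7 CPM in *APOE4* libraries (log2 fold change 0.46, edgeR adjusted p = 0.010). Summed levels were 193 to 361 and 227 to 344 CPM for pericyte and smooth muscle markers, and 11.6 to 100.3 CPM over both genotypes for fibroblast markers, with no gene of either list called. Astrocyte, neuron and oligodendrocyte markers summed to at most 45.1 CPM, with 1 called, Cnp, which was higher. The part of other cell types in the results was not tested. A list of 30 cell cycle genes also moved with genotype: 27 were higher with *APOE4*, with a median log2 fold change of 0.66. Its mean log2 CPM was 5.62 ± 0.352 (SD, n = 8) in *APOE3* and 6.22 ± 0.27 (SD, n = 8) in *APOE4* libraries (p = 0.0014, exact permutation test, two-sided). In bulk RNA, a change in the share of a cell type and a change in RNA per cell cannot be told apart.

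Expression of most lysosome and V-ATPase genes differed little between the genotypes. With edgeR's quasi-likelihood F test and Benjamini-Hochberg (BH) adjustment over all genes, 8 of the 44 genes (18.2%) had an adjusted p under 0.05, against 12.8% of the 12481 genes tested. Ctsb, Ctsh, Hexa and Atp6v0e were higher with *APOE4* (6.71% of all genes were called higher), and Cd63, Mcoln1, Ctsl and Atp6v0b were lower (6.09% of all genes). This split of 4 higher and 4 lower was 5 and 3 with upper-quartile normalization. An unadjusted p under 0.05 was found for 16 genes (36.4%), against 29% of all genes tested. All the differences were small. The median absolute log2 fold change was 0.06, against 0.09 over all genes tested, 31 genes (70.5%, against 54.4% of all genes) lay within 0.1 of 0, and Cd63 was the only gene beyond 0.2. All genes tested were not matched to the 44 for expression level in these comparisons. The median signed log2 fold change was 0.03, with 28 genes above and 16 below 0. Together the 44 genes took 0.689% to 0.742% of the counts of a library.

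**Figure D1:**
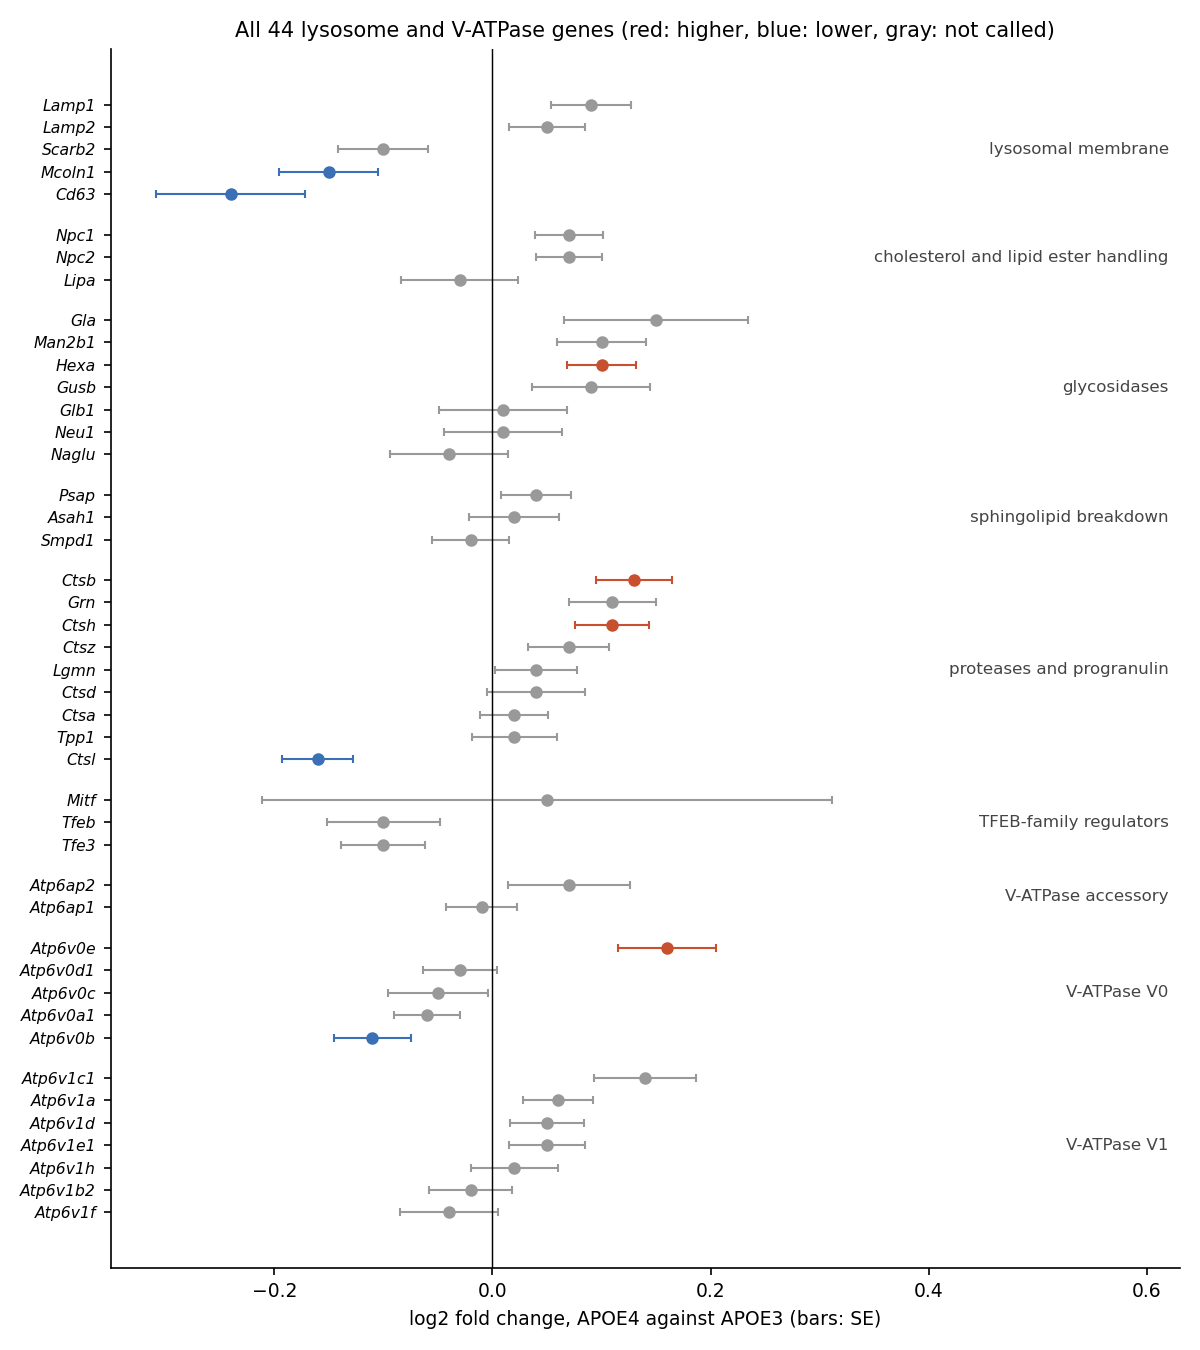
Log2 fold change (x axis, *APOE4* against *APOE3*, 8 libraries each) of all 44 genes, grouped by role, with bars for 1 standard error. The 4 genes called higher (red) lie between 0.10 and 0.16 and the 4 called lower (blue) between -0.24 and -0.11, while the widest bar belongs to Mitf, the gene with the fewest counts.

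The TFEB-family regulators are described first, as they are known regulators of many of these genes. Their action on the other genes was not tested. Tfeb (ENSMUSG00000023990.18, chromosome 17 from 47737030 to 47792419) had 35.3, 39.0 and 42.9 CPM as its lowest, median and highest value in *APOE3* libraries, and 32.7, 36.2 and 41.3 CPM in *APOE4* libraries. Of the *APOE4* libraries, 7 lay below the *APOE3* median, and *APOE4* replicate 36 lay among the higher *APOE3* libraries. The log2 fold change was -0.10 (SE 0.0517, edgeR adjusted p = 0.191). Tfe3 (ENSMUSG00000000134.17, chromosome X from 7762560 to 7775202), a relative of Tfeb with the same target motif, ranged from 72.9 over a median of 77.2 to 81.2 CPM in *APOE3* and from 65.9 over 72.1 to 81.2 CPM in *APOE4* libraries. In 6 *APOE4* libraries its level was below that of every *APOE3* library, while *APOE4* replicate 36 was level with the highest. Its log2 fold change of -0.10 (SE 0.0386, edgeR adjusted p = 0.108) was not called, although it was without *APOE4* replicate 36 (log2 fold change -0.12, BH-adjusted p = 0.0286). Mitf (ENSMUSG00000035158.15, chromosome 6 from 97807052 to 98021349), best known from melanocytes, was close to undetected, with 6 to 30 counts per library. It had 0.422, 1.23 and 1.60 CPM (lowest, median, highest) in *APOE3* and 0.539, 1.16 and 1.99 CPM in *APOE4* libraries, and its log2 fold change of 0.05 had an SE of 0.261 (BH-adjusted p = 0.932).

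The E-box these factors bind was looked for in RefSeq promoter sequences (GRCm38.p6, 250 bases before to 50 after the transcript start), which were at hand for 37 of the 44 genes. The letters CACGTG, which read the same on both strands, were present in 13 of the 37 (35.1%), against 8.09% of the 27025 genes with a promoter sequence and 11.9% of the tested genes among them. The longer TCACGTGA, which contains the first, was present in 7 (18.9%), against 1.12% of all genes and 2.23% of tested genes. The full 10-base palindrome of the CLEAR element was present in 0, and in 0.37% of all genes. Of the 6 called genes with a promoter sequence, 4 held CACGTG, namely Mcoln1, Ctsl, Atp6v0b and Atp6v0e. These sites are shown because they belong to the genes that differed, with Lamp1 as the gene with the most sites and Atp6v0d1 as a V-ATPase gene that was not called; CACGTG is in capitals and each sequence runs 5′ to 3′ on the strand of the gene.
Lamp1, 4 sites (chr8:13159095-13159155, plus strand): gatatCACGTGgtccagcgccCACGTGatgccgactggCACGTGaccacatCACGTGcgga
Mcoln1, site 1 (chr8:3500436-3500465, plus strand): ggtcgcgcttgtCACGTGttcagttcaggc
Mcoln1, site 2 (chr8:3500462-3500491, plus strand): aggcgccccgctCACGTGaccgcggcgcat
Ctsl (chr13:64370739-64370768, minus strand): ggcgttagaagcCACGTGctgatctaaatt
Atp6v0b, site 1 (chr4:117887348-117887377, minus strand): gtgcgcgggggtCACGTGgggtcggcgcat
Atp6v0b, site 2 (chr4:117887330-117887359, minus strand): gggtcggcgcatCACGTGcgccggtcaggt
Atp6v0d1 (chr8:105566050-105566079, minus strand): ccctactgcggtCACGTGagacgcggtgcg
Atp6v0e (chr17:26676387-26676416, plus strand): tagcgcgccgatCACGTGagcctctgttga

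The sites of Atp6v0b began 36 and 18 bases before the RefSeq start and those of Mcoln1 71 and 45 bases before it, while the site of Ctsl lay 236 bases before and that of Atp6v0e 4 bases after the start. Among the 13 genes with CACGTG, 4 were called, 1 higher and 3 lower, and the median log2 fold change was 0.02. Among the 24 genes without it, 2 were called, 1 higher and 1 lower, and the median was 0.03. Of all genes tested, 12.8% were called, and the share among all tested genes with CACGTG is not given here. The called genes Ctsb and Ctsh had no promoter sequence at hand and are in neither set. The log2 fold changes of genes with the motif ran from -0.16 (Ctsl) to 0.16 (Atp6v0e), and the part of the motif in them was not tested. Lamp1, whose promoter held 4 sites within 61 bases, was not among the called genes. Other transcription factors bind the same letters, and binding was not measured here.

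Of the 5 lysosomal membrane genes, Cd63 and Mcoln1 were lower with *APOE4* and 3 were not called. Cd63 (ENSMUSG00000025351.14, chromosome 10 from 128900989 to 128912822) encodes a tetraspanin of late endosomes and lysosomes that is also carried on exosomes, and in endothelial cells sits in Weibel-Palade bodies. Its lowest, median and highest levels were 51.0, 59.1 and 67.1 CPM in *APOE3* and 42.2, 49.8 and 56.6 CPM in *APOE4* libraries. All 8 *APOE4* libraries lay below the *APOE3* median, and 4 lay below every *APOE3* library, of which the lowest was replicate 31. The mean fell from 59.3 ± 5.82 to 50.2 ± 5.60 CPM (SD, n = 8 each), a log2 fold change of -0.24 (SE 0.0683, edgeR adjusted p = 0.0278) and the largest among the 44 genes. Cd63 shares 11% of its 50-base stretches with other genes, chiefly its pseudogene Cd63-ps, which had 8 to 36 counts.

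Mcoln1 (ENSMUSG00000004567.16, chromosome 8 from 3500457 to 3515232) encodes the channel TRPML1, which releases calcium from the lysosome and by that route activates TFEB. Its promoter held CACGTG at 2 places. Its levels were 95.9, 105 and 125 CPM (lowest, median, highest) in *APOE3* and 91.3, 95.8 and 104 CPM in *APOE4* libraries. No *APOE4* library reached the *APOE3* median, the ranges overlapped, and *APOE3* replicate 30 stood highest. The mean fell from 107 ± 9.09 to 97.0 ± 4.39 CPM (SD, n = 8 each), with a log2 fold change of -0.15 (SE 0.0455, edgeR adjusted p = 0.0395).

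Lamp1 (ENSMUSG00000031447.7, chromosome 8 from 13159161 to 13175338), which encodes a main glycoprotein of the lysosomal membrane, had 576, 616 and 659.7 CPM (lowest, median, highest) in *APOE3* and 592, 656 and 703 CPM in *APOE4* libraries. The ranges overlapped widely, with 2 *APOE4* libraries above every *APOE3* library. The log2 fold change was 0.09 (SE 0.0366, edgeR adjusted p = 0.0998). Without *APOE4* replicate 43, the lowest of its genotype, it was 0.11 with an adjusted p of 0.0327. Scarb2, which encodes the receptor that brings glucocerebrosidase to lysosomes, had a log2 fold change of -0.10 (SE 0.0412, BH-adjusted p = 0.103), and none of the 8 *APOE4* libraries reached its *APOE3* median. Without *APOE3* replicate 31 it was called (-0.12, BH-adjusted p = 0.0471). Lamp2, the partner of Lamp1 and the receptor of chaperone-mediated autophagy in one of its isoforms, had 0.05 (SE 0.0352, BH-adjusted p = 0.322).

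None of the 3 genes of cholesterol and lipid ester handling was called. Lipa (ENSMUSG00000024781.15, chromosome 19 from 34492318 to 34527474), the acid lipase that hydrolyzes cholesteryl esters and triglycerides from lipoproteins, had 158, 179 and 208 CPM (lowest, median, highest) in *APOE3* and 163, 179 and 198 CPM in *APOE4* libraries. The *APOE4* range lay inside the *APOE3* range, with a log2 fold change of -0.03 (SE 0.0535, edgeR adjusted p = 0.755). Npc1 and Npc2, which move cholesterol out of the lysosome, each had a log2 fold change of 0.07, with adjusted p-values of 0.142 (SE 0.0309) and 0.156 (SE 0.0303). For Npc1, 6 *APOE4* libraries were above every *APOE3* library, and for Npc2 1 was.

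Of the 7 glycosidases, Hexa was higher with *APOE4*. Hexa (ENSMUSG00000025232.8, chromosome 9 from 59539540 to 59565109), the alpha subunit of the hexosaminidase that degrades ganglioside GM2, had 112, 116 and 119 CPM (lowest, median, highest) in *APOE3* and 113, 126 and 133 CPM in *APOE4* libraries. In 7 *APOE4* libraries the level was above every *APOE3* library, and replicate 38 was the exception. The mean rose from 116 ± 2.67 to 124 ± 6.13 CPM (SD, n = 8 each), with a log2 fold change of 0.10 (SE 0.0315, edgeR adjusted p = 0.0389). Tmem202, which overlaps 12.8% of its exon bases on the other strand, had at most 18 counts. Gla, Man2b1 and Gusb, which cleave galactose, mannose and glucuronic acid residues, had log2 fold changes of 0.15 (SE 0.0841), 0.10 (SE 0.0409) and 0.09 (SE 0.0541) and were not called (BH-adjusted p = 0.261, 0.127 and 0.292). Glb1, Neu1 and Naglu, which remove galactose, sialic acid and N-acetylglucosamine, lay between -0.04 and 0.01.

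The 3 genes of sphingolipid breakdown stayed between -0.02 and 0.04, and none was called. Psap (ENSMUSG00000004207.14, chromosome 10 from 60277627 to 60302597), the precursor of the saposins that present sphingolipids to hydrolases, had the highest level of all 44 genes, with 13697 to 19867 counts per library. Its lowest, median and highest levels were 985, 1029.6 and 1066 CPM in *APOE3* and 962, 1052 and 1118 CPM in *APOE4* libraries. *APOE4* libraries held both the lowest and the highest value, and the log2 fold change was 0.04 (SE 0.0317, edgeR adjusted p = 0.402). Asah1, acid ceramidase, and Smpd1, acid sphingomyelinase, had log2 fold changes of 0.02 (SE 0.0411, BH-adjusted p = 0.775) and -0.02 (SE 0.0352, BH-adjusted p = 0.711).

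Among the 9 genes of proteases and progranulin, 3 cathepsins were called, 2 higher and 1 lower with *APOE4*. Ctsl (ENSMUSG00000021477.8, chromosome 13 from 64359337 to 64370890), a cysteine endopeptidase, had 533, 567 and 599 CPM (lowest, median, highest) in *APOE3* and 475, 515 and 528 CPM in *APOE4* libraries. The 8 *APOE4* libraries all lay below the 8 *APOE3* libraries, and no other gene of the 44 showed a separation of this kind, which 0.625% of all genes tested did (0.256% higher, 0.369% lower). The mean fell from 568 ± 20.3 to 507 ± 21.2 CPM (SD, n = 8 each), with a log2 fold change of -0.16 (SE 0.0325, edgeR adjusted p = 0.00643), the smallest adjusted p among the 44 genes. Exons of Gm47123 and Gm49230 overlap those of Ctsl, over 26.8% of its bases on the other strand and 6.09% on the same strand, and neither was analysed here.

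Ctsb (ENSMUSG00000021939.7, chromosome 14 from 63122462 to 63145923), a cysteine protease with both endopeptidase and carboxypeptidase activity, went the other way. Its levels were 402, 450.4 and 497 CPM (lowest, median, highest) in *APOE3* and 471, 492 and 499 CPM in *APOE4* libraries. All 8 *APOE4* libraries were above the *APOE3* median and above 7 *APOE3* libraries, while *APOE3* replicate 31 lay among the *APOE4* libraries. The mean rose from 448 ± 27.1 to 490.2 ± 9.18 CPM (SD, n = 8 each), with a log2 fold change of 0.13 (SE 0.0350, edgeR adjusted p = 0.0225). Its exons overlap Fdft1 on the other strand over 12.8% of their bases. Fdft1 had a log2 fold change of 0.13 as well and was not called (BH-adjusted p = 0.273).

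Ctsh (ENSMUSG00000032359.14, chromosome 9 from 90054152 to 90076089), mainly an aminopeptidase, had 122, 126 and 129.9 CPM (lowest, median, highest) in *APOE3* and 125, 133 and 147 CPM in *APOE4* libraries. In 7 *APOE4* libraries it was above every *APOE3* library, and replicate 38 fell within the *APOE3* range. The mean rose from 126 ± 2.97 to 136 ± 7.81 CPM (SD, n = 8 each), with a log2 fold change of 0.11 (SE 0.0339, edgeR adjusted p = 0.0439).

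**Figure D2:**
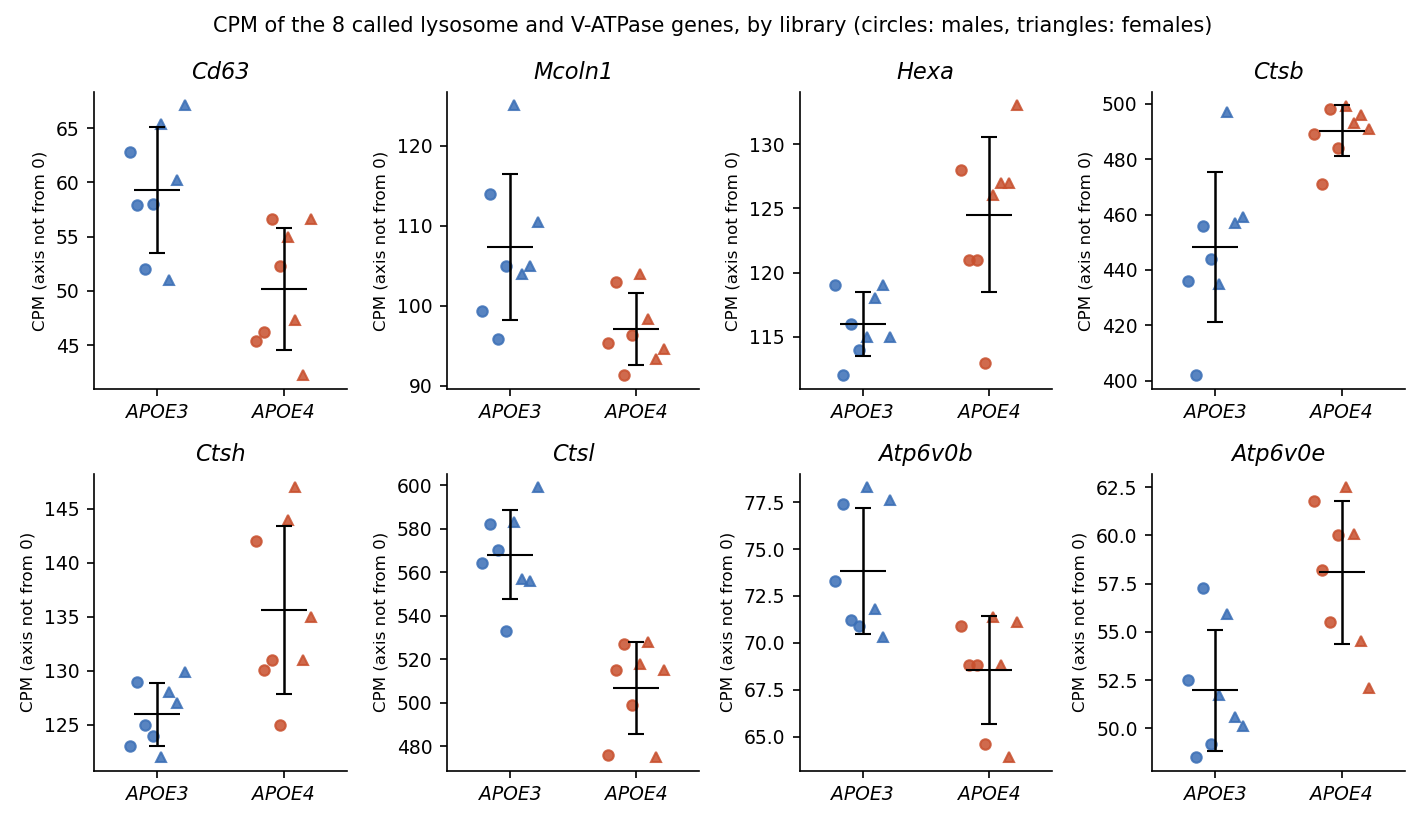
Normalized level in CPM (y axes, not from 0) of the 8 called genes in each library, with *APOE3* in blue, *APOE4* in red, circles for males, triangles for females and bars for mean ± SD (n = 8 per genotype). The genotypes are fully apart for Ctsl alone, and the *APOE3* female at 497 CPM of Ctsb is replicate 31.

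Ctsd (ENSMUSG00000007891.16, chromosome 7 from 142375911 to 142388038), the main lysosomal aspartic protease, had 411, 468 and 504 CPM (lowest, median, highest) in *APOE3* and 422, 484 and 506 CPM in *APOE4* libraries. The ranges coincided almost entirely, and its log2 fold change was 0.04 (SE 0.0450, edgeR adjusted p = 0.625). Gm49369 shares 34.4% of the exon bases of Ctsd on the same strand and had at most 1 count. How reads in the shared part were assigned is not given, so the level of Ctsd may be understated. Grn, which encodes progranulin, a secreted and lysosomal glycoprotein, had a log2 fold change of 0.11 (SE 0.0402, BH-adjusted p = 0.0750), and was called without *APOE3* replicate 31 (0.13, BH-adjusted p = 0.0190) and without *APOE4* replicate 43 (0.13, BH-adjusted p = 0.0339). With GC content and length corrected it was also called (0.12, BH-adjusted p = 0.0376). The other genes of the group were not called. They were Ctsz, a carboxypeptidase (log2 fold change 0.07, BH-adjusted p = 0.206), Lgmn, the asparaginyl endopeptidase that processes cathepsins (0.04, BH-adjusted p = 0.488), Ctsa, the protective protein of galactosidase and sialidase (0.02, BH-adjusted p = 0.728), and Tpp1, a tripeptidyl peptidase (0.02, BH-adjusted p = 0.785). Of the exon bases of Ctsa, 17.4% overlap Pltp and Neurl2 on the other strand, which were lower with *APOE4* (log2 fold changes -0.29 and -0.38, BH-adjusted p = 0.0188 and 0.0391).

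Of the 14 V-ATPase genes, 1 was higher and 1 was lower with *APOE4*, both in the membrane V0 sector, and the median log2 fold change was 0.01. Atp6v0e (ENSMUSG00000015575.14, chromosome 17 from 26663231 to 26699647), which encodes the small e subunit, had 48.5, 51.1 and 57.3 CPM (lowest, median, highest) in *APOE3* and 52.1, 59.1 and 62.5 CPM in *APOE4* libraries. All 8 *APOE4* libraries were above the *APOE3* median and 5 were above every *APOE3* library. The mean rose from 52.0 ± 3.16 to 58.1 ± 3.71 CPM (SD, n = 8 each), with a log2 fold change of 0.16 (SE 0.0451, edgeR adjusted p = 0.0258).

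Atp6v0b (ENSMUSG00000033379.13, chromosome 4 from 117884326 to 117887333), a proteolipid of the proton-carrying ring, had 70.3, 72.6 and 78.3 CPM (lowest, median, highest) in *APOE3* and 63.9, 68.8 and 71.4 CPM in *APOE4* libraries. None of the 8 *APOE4* libraries reached the *APOE3* median, and 5 were below every *APOE3* library. The mean fell from 73.9 ± 3.36 to 68.5 ± 2.87 CPM (SD, n = 8 each), with a log2 fold change of -0.11 (SE 0.0351, edgeR adjusted p = 0.0469). Gm12841 overlaps 11.8% of its exon bases on the other strand. Atp6v0c, the other ring proteolipid among these genes, had a log2 fold change of -0.05 (SE 0.0455, BH-adjusted p = 0.464) and shares 10.8% of its 50-base stretches with pseudogenes. Atp6v0a1, which encodes the large membrane subunit beside the ring, had -0.06 (SE 0.0305, BH-adjusted p = 0.220).

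Atp6v0d1 (ENSMUSG00000013160.7, chromosome 8 from 105524465 to 105566047), which links the ring to the central stalk, had the highest level per kilobase of exon among the V0 genes. It had 85.9, 89.7 and 98.7 CPM (lowest, median, highest) in *APOE3* and 84.9, 88.8 and 95.6 CPM in *APOE4* libraries. The ranges coincided almost entirely, and the log2 fold change was -0.03 (SE 0.0339, edgeR adjusted p = 0.608).

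None of the 7 genes of the cytosolic V1 sector was called. Atp6v1f (ENSMUSG00000004285.12, chromosome 6 from 29467718 to 29470512), a stalk subunit and the V1 gene with the highest level per kilobase, had 39.4, 42.7 and 46.3 CPM (lowest, median, highest) in *APOE3* and 38.7, 40.6 and 46.2 CPM in *APOE4* libraries. These ranges overlapped nearly in full, with a log2 fold change of -0.04 (SE 0.0450, edgeR adjusted p = 0.648). Atp6v1f shares 11.2% of its 50-base stretches with AC169506.3. Atp6v1c1, the subunit at the junction of the sectors, came closest to the threshold, with a log2 fold change of 0.14 (SE 0.0469, BH-adjusted p = 0.0536) and all 8 *APOE4* libraries above the *APOE3* median. It passed with upper-quartile normalization (BH-adjusted p = 0.0478), with sex as a term (0.0472), with DESeq2 (0.0405), with limma's voom (0.0426), and without *APOE3* replicate 32 (0.0495) or 33 (0.0397). Atp6v1a and Atp6v1b2, whose products form the ATP-hydrolyzing head, had log2 fold changes of 0.06 (SE 0.0323, BH-adjusted p = 0.193) and -0.02 (SE 0.0381, BH-adjusted p = 0.783). Atp6v1d, Atp6v1e1 and Atp6v1h, of the stalks and their regulation, lay between 0.02 and 0.05.

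Both accessory subunit genes were uncalled. Atp6ap1 (ENSMUSG00000019087.13, chromosome X from 74297097 to 74304721), which takes part in assembly of the pump, had 173, 182 and 196 CPM (lowest, median, highest) in *APOE3* and 173, 183 and 190.0 CPM in *APOE4* libraries. The *APOE4* range lay within the *APOE3* range, and the log2 fold change was -0.01 (SE 0.0323, edgeR adjusted p = 0.883). Atp6ap2, the prorenin receptor, had 0.07 (SE 0.0561, BH-adjusted p = 0.467).

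Levels were compared between genes as CPM per kilobase of exon, averaged over all 16 libraries. On this scale Psap led with a level of 378 ± 15.0, followed by Lamp1 with 238 ± 13.6, Ctsd with 199 ± 12.6, Grn with 125 ± 8.32 and Lgmn with 99.8 ± 5.09 (SD, n = 16), steps larger than their spread between libraries. The spread does not cover the uncertainty for Ctsd from the exon bases it shares with Gm49369. Ctsl, Ctsb and Ctsz came next at 82.8 ± 5.77, 77.6 ± 4.81 and 77.2 ± 4.28 CPM per kilobase, levels that did not differ beyond their spread on this scale. Among V-ATPase genes, the level per kilobase was highest for Atp6ap1 at 60.5 ± 2.32, near the 60.2 ± 3.17 of Hexa, and was 50.4 ± 2.19 for Atp6v0d1 and 39.6 ± 2.35 for Atp6v1f. Lipa and Npc2 had 26.5 ± 2.11 and 25.2 ± 1.07 CPM per kilobase. The regulators were among the lowest, with 8.07 ± 0.487 CPM per kilobase for Tfe3, 6.59 ± 0.519 for Tfeb and 0.187 ± 0.0667 for Mitf, the last of all, below Gla at 2.15 ± 0.239. Dividing by the longest transcript instead of all exons put Atp6v0b (71.2) above Atp6v0d1 (55.5) and Tfeb (16) above Tfe3 (11.8 CPM per kilobase). It kept the 5 leading genes and moved 7 genes by 5 or more ranks, Mcoln1 farthest, from 33 to 19.

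**Figure D3:**
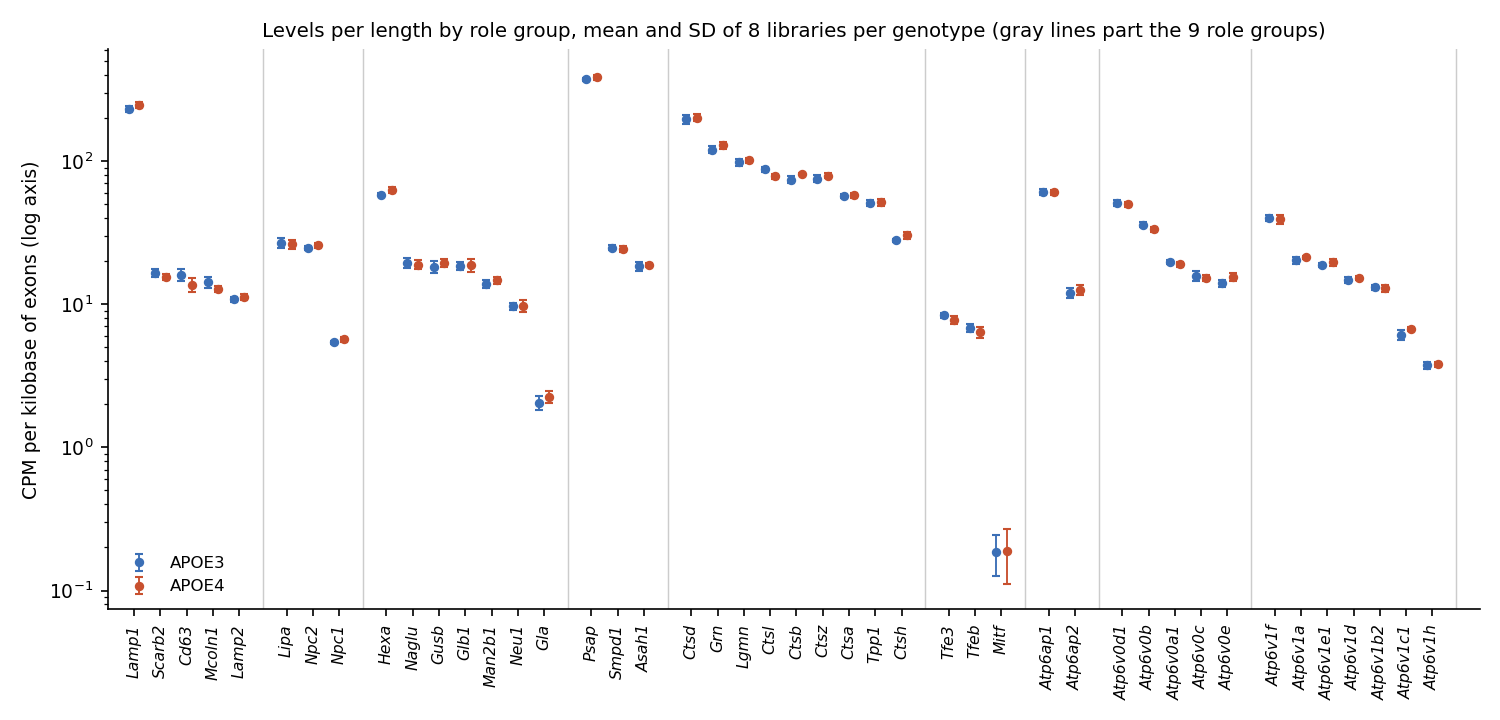
Level per length (y axis, CPM per kilobase of exons, log axis) of the 44 genes by role group, with points and bars for the mean and SD of 8 libraries per genotype. The genes span levels from 0.187 (Mitf) to 378 (Psap) CPM per kilobase over all libraries, and the *APOE3* and *APOE4* points of a gene lie close together.

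Beyond the 44, 143 further genes in 8 lists were examined, of which 131 were tested. Of these, 17 (13%) were called, 6 higher and 11 lower with *APOE4*, close to the 12.8% of all genes tested. Among all genes, 6.71% were called higher and 6.09% lower. The share called was 9.38% in hydrolases and activators, 10% in membrane proteins, 9.09% in mannose 6-phosphate sorting and 0% in further V-ATPase genes. It was 10% in nutrient control of TFEB, 45.5% in lysosome fusion, 15% in autophagy and 20% in cathepsin inhibitors. Among 32 tested hydrolases and activators, Arsb, the sulfatase of dermatan sulfate, was higher (log2 fold change 0.39, SE 0.0712, edgeR adjusted p = 0.00574), as was Scpep1, a serine carboxypeptidase (0.30, SE 0.0558, BH-adjusted p = 0.00574). Scpep1 showed no overlap between the genotypes, and 0.256% of all genes tested were higher without overlap. Of 20 membrane proteins, Ostm1, the partner of the chloride transporter ClC-7, was higher (0.18, SE 0.0432, BH-adjusted p = 0.0131), and Lmbrd1, which takes part in cobalamin export, was lower (-0.18, SE 0.0537, BH-adjusted p = 0.0323). In mannose 6-phosphate sorting, 1 of 11 genes was called: Igf2r, the large receptor that carries new hydrolases to lysosomes, was higher (0.30, SE 0.0801, BH-adjusted p = 0.0215). M6pr, the small receptor, had 0.22 (SE 0.0776) and was not called (BH-adjusted p = 0.0683).

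The remaining V-ATPase subunits and assembly factors gave no call among 12 tested genes with edgeR and 0 with an unadjusted p under 0.05. Of all genes tested, 12.8% were called and 29% had an unadjusted p under 0.05. The tissue-restricted isoforms Atp6v0a4 and Atp6v1b1 had 0 counts in every library, and Atp6v0d2, Atp6v1c2 and Atp6v1e2 had at most 5. Of 20 genes that control TFEB through nutrients, 2 were lower. Flcn, the folliculin that acts on Rag GTPases, had a log2 fold change of -0.25 (SE 0.0497, edgeR adjusted p = 0.00643), and Tsc1, a subunit of the complex that restrains mTORC1, had -0.14 (SE 0.0449, BH-adjusted p = 0.0426).

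In the list of lysosome fusion, 5 of 11 genes were called (45.5%, against 12.8% of all genes). This was the highest share among the 8 lists, which were chosen with earlier results of these data known. Snap29, a SNARE of autophagosome fusion, was higher (0.18, SE 0.0451, edgeR adjusted p = 0.0141). Vps11, a core subunit of the HOPS tether, and Plekhm1, an adaptor between Rab7 and HOPS, were lower (-0.18, SE 0.0523, BH-adjusted p = 0.0277, and -0.16, SE 0.0345, BH-adjusted p = 0.00824). Vps16 (-0.14, SE 0.0376, BH-adjusted p = 0.0232) and Vps39 (-0.13, SE 0.0325, BH-adjusted p = 0.0179), further HOPS subunits, were also lower. How the calls of Vps16 and Vps39 held with 1 library left out is not given here. Of 20 autophagy genes, 3 were lower: Gabarapl1, an ATG8 protein (-0.35, SE 0.0654, BH-adjusted p = 0.00574), the cargo receptor Sqstm1 (-0.14, SE 0.0399, BH-adjusted p = 0.0317) and the kinase Ulk1 (-0.13, SE 0.0418, BH-adjusted p = 0.0492). Of 5 tested cathepsin inhibitors, Serpinb6a was higher (0.14, SE 0.0385, BH-adjusted p = 0.0226).

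With 1 library left out, Arsb, Scpep1, Ostm1, Flcn, Snap29, Plekhm1 and Gabarapl1 were called in 16 of 16 fits. Igf2r was called in 15 fits and lost without *APOE4* replicate 41 (edgeR adjusted p = 0.0519), and Serpinb6a without *APOE3* replicate 30 or *APOE4* replicate 41 (up to 0.0537). Vps11, Lmbrd1, Sqstm1, Ulk1 and Tsc1 were called in 11, 9, 9, 6 and 5 fits. Each of these was lost without *APOE3* replicates 26, 30 or 33 and without *APOE4* replicate 41, with adjusted p-values up to 0.113.

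**Figure D4:**
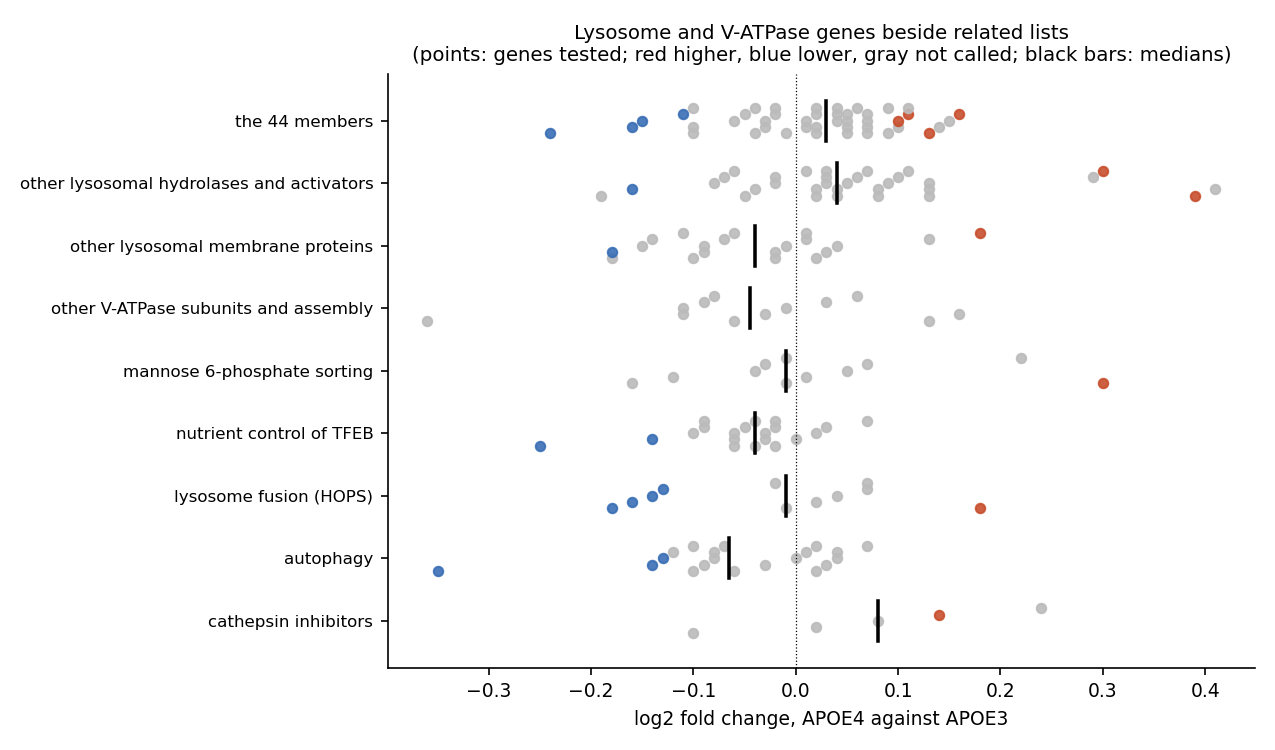
Log2 fold change (x axis, *APOE4* against *APOE3*, 8 libraries each) of each tested gene in the 44-gene set and in 8 related lists, with black bars for medians and color for genes called higher (red) or lower (blue). Medians lie within 0.1 of 0 in every list, and the points called farthest out are Arsb at 0.39 and Gabarapl1 at -0.35.

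Males and females were compared in 1 edgeR fit of 4 groups with 4 libraries each. No gene of the 12481 was called within males, within females or for the difference between them, while 1775, 2428 and 345 genes had an unadjusted p under 0.05. Among the 44 genes, 8 in males (18.2%) and 9 in females had an unadjusted p under 0.05, against 14.2% and 19.5% of all genes, and 0 did for the difference, against 2.76% of all genes. The sign was the same in both sexes for 37 of the 44 genes, and the share over all genes is not given here. It was also the same for all 8 called genes. These were called from the same libraries, so their shared sign is not separate support. The log2 fold change of Ctsl was -0.16 (SE 0.0477) in males and -0.17 (SE 0.0476) in females, and that of Cd63 was -0.20 (SE 0.101) and -0.28 (SE 0.100). For the difference, Ctsd had the lowest unadjusted edgeR p of the 44, 0.0852 (adjusted to 1), with 0.12 (SE 0.0608) in males and -0.04 (SE 0.0608) in females. Without *APOE3* replicate 31, Cd63 (-0.35, SE 0.0966, edgeR adjusted p = 0.0366) and Ctsl (-0.19, SE 0.0520, BH-adjusted p = 0.0397) were called in females. The share of all genes called in females in that fit is not given here. In the fit of both sexes together, leaving out this library raised the calls among all genes from 1597 to 2127.

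The 8 calls differed in how often they held under other settings. When each library was left out in turn, Ctsl was called in 16 of 16 fits, with adjusted p-values of 0.00341 to 0.0186. The call of Ctsb was lost in 1 fit, without *APOE3* replicate 30 (BH-adjusted p = 0.0508). That of Cd63 was lost in 5 fits, without *APOE3* replicates 30 and 33 or *APOE4* replicates 35, 40 and 41 (adjusted p up to 0.0640), and that of Atp6v0e in 6, without *APOE3* replicates 26, 28, 30 and 33 or *APOE4* replicates 35 and 39 (up to 0.0538). Mcoln1, Hexa, Atp6v0b and Ctsh kept their calls in 6, 6, 5 and 4 of the 16 fits, with adjusted p-values up to 0.0816, 0.0787, 0.104 and 0.0917. All of these 4 were lost without *APOE3* replicates 26, 28, 30 or 33 and without *APOE4* replicates 35, 40 or 41. The number of called genes among the 44 was 1 without *APOE3* replicate 30, 2 without *APOE4* replicate 35, 3 without *APOE3* replicates 26, 28 or 33 or *APOE4* replicates 40 or 41, 5 without *APOE4* replicate 39, and 10 without *APOE3* replicate 31. Among fits on all libraries, the cell cycle score was the single setting that ended the calls of Ctsl and Ctsb. Correction for GC content and length ended those of Cd63 (adjusted p = 0.0529 from edgeR), Atp6v0e (0.0822), Ctsh (0.102) and Atp6v0b (0.0611), and leaving out the filter on low counts ended those of Hexa (0.0915), Ctsh (0.0980) and Atp6v0b (0.0818). With voom the adjusted p was 0.0589 for Mcoln1 and 0.0553 for Atp6v0b, whose call was also lost with upper-quartile normalization and with sex as a term.

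The cell cycle score gave the fewest calls of all alternatives. With the score as a term beside genotype, 0 of the 12481 genes was called by edgeR (885 had an unadjusted p under 0.05), and 0 of the 44 (6 had an unadjusted p under 0.05: Lamp2, Npc1, Ctsl, Lgmn, Atp6v1c1 and Atp6v1e1). All 8 called genes kept their sign. The log2 fold change of Ctsl was then -0.09 (SE 0.0392, edgeR adjusted p = 0.644), while that of Cd63 was -0.02 (SE 0.0692, BH-adjusted p = 0.975) and that of Mcoln1 -0.04 (SE 0.0542, BH-adjusted p = 0.911). *APOE3* replicate 31 had the highest score of its genotype, 6.18 against 5.14 to 5.91 in the other *APOE3* libraries, and *APOE4* libraries had 5.90 to 6.68. The score and the genotype moved together, and their parts in these differences cannot be told apart.

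**Figure D5:**
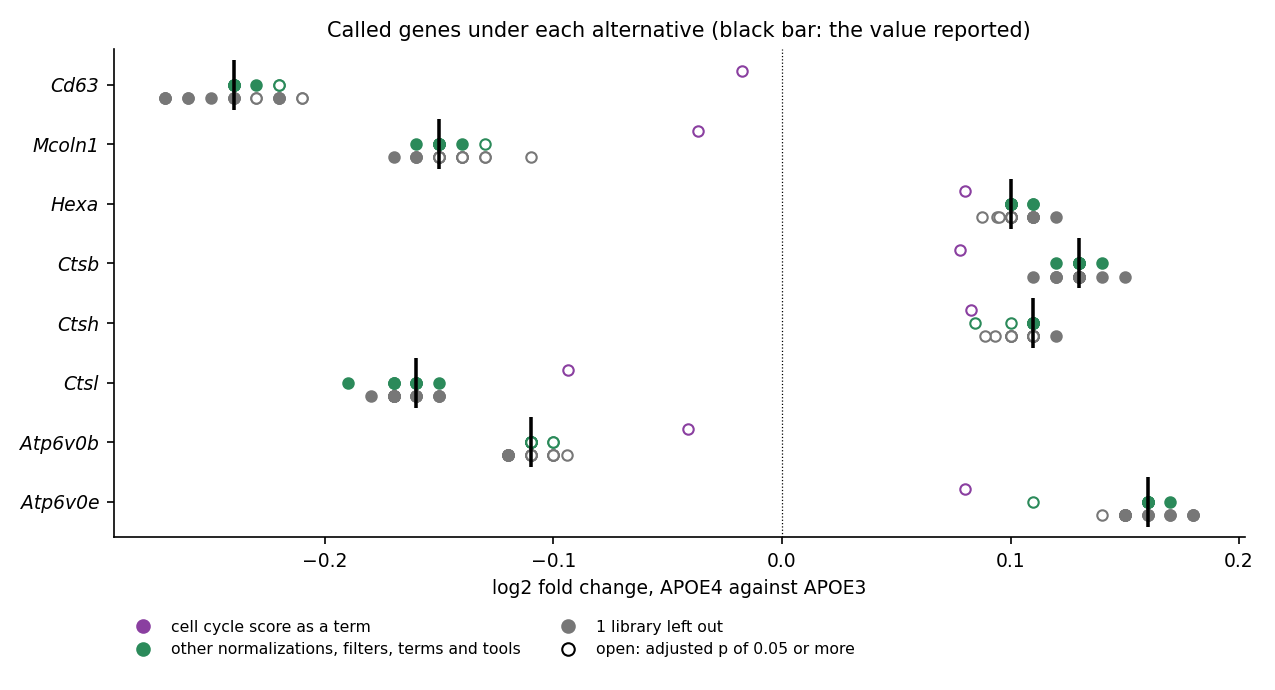
Log2 fold change (x axis, *APOE4* against *APOE3*) of the 8 called genes under each alternative, with a black bar for the value reported, gray points for fits with 1 library left out, green points for other normalizations, filters, terms and tools, and purple points for the cell cycle score as a term. Open points have an adjusted p of 0.05 or more; every point keeps the sign of the bar, and the purple point is nearest to 0 for Cd63 and Mcoln1.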

How the data were processed

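RNA was measured in 16 libraries of cultured brain endothelial cells, 8 per *APOE* genotype. The values used are raw read counts per gene, which the authors deposited without normalization; per the labels, reads were processed with STAR and featureCounts against mm10 and hg38, and versions, annotation release and strand setting are not given in the sources used here. Libraries were made per the labels from 100 ng of RNA with poly-A selection, strand selection and 17 PCR cycles, and read as pairs of 50 nt. Reads carry no molecular identifiers, so precision from depth (12717847 to 18624417 counts per library) covers counting error only. Without a stated strand setting, reads of genes that overlap on opposite strands may be mixed.

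Of 39056 mouse identifiers, 38872 were matched to GENCODE mouse release 21 (GRCm38). Tests were run with edgeR 4.0.16 in R 4.3.3. Low counts were removed with filterByExpr, libraries were scaled by TMM, and genotype was the term tested by the quasi-likelihood F test, with p-values adjusted by the Benjamini-Hochberg method over 12481 genes and a threshold of 0.05. CPM are TMM-normalized. A standard error is the log2 fold change divided by the square root of F. Sex was examined in a fit of 4 groups with an interaction contrast. Single values per library were compared by exact permutation. Alternatives were DESeq2 1.42.0 size factors and Wald test, upper-quartile normalization, no filter or at least 10 counts in every library, sex, the cell cycle score (mean log2 CPM, prior count 2) or 1 surrogate variable (sva 3.50.0) as a term, limma 3.58.1 voom with quality weights, GC content and length splines (5 degrees of freedom), and each library left out. The fits were tested on simulated data.

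The 44 genes, the related lists and the markers were chosen with earlier results of these data known. Values by library are given for called genes, the 3 TFEB-family regulators and the gene with the highest level per kilobase of each role, and up to 3 called genes are named per related list. A called gene of these lists is not reported here by name. M6pr, Vps16, Vps39, Cd14, Cnp, Emcn, Slco1c1, Slc7a5, Pltp and Neurl2, the near misses, and the sites shown were named after their values were seen. Promoter sequences are from RefSeq (GRCm38.p6). Replicates are separate animals per the series' design text, and no library or sequencing batch is given in the sources used here.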

Additional observations from a re-analysis of the deposited data

Results flagged for a closer look

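Among 118 groups of 8 libraries (59 genes in 2 genotypes), 3 held a library that stood apart from the other 7 by Dixon's test, which chance gives in about 1 of 20 groups. Npc2, which binds cholesterol in the lysosomal lumen, was highest in *APOE4* replicate 35 at 152 CPM, against 132 to 141 CPM in the other *APOE4* libraries. Gusb, beta-glucuronidase, was lowest in *APOE3* replicate 26 at 64.5 CPM, against 82.5 to 88.6 CPM in the other *APOE3* libraries. Tsc1, a restraint on mTORC1, was lowest in *APOE4* replicate 35 at 41.0 CPM, against 46.0 to 49.3 CPM in the others of its genotype. Without that library the Tsc1 log2 fold change was -0.12 and no longer called (edgeR adjusted p = 0.0797). This was among the 11 of 16 fits with 1 library left out in which the Tsc1 call was lost.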

How the results depend on the processing

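The number of called genes among the 44 was 8 with DESeq2's size factors, upper-quartile normalization (5 higher, 3 lower), at least 10 counts in every library, sex (5 and 3) or 1 surrogate variable as a term, 9 (5 and 4) with DESeq2, 7 (5 and 2) with voom, 5 (2 and 3) with no filter on low counts, 5 (3 and 2) with GC content and length corrected, and 0 with the cell cycle score as a term. The score also left 0 called among all genes and 0 in the related lists. With 1 library left out, 1 (without *APOE3* replicate 30) to 10 (without *APOE3* replicate 31) of the 44 were called, 846 (without *APOE4* replicate 41) to 2127 (without *APOE3* replicate 31) of all genes, 8 to 22 in the related lists (without the same libraries), and 0 to 2 of the 44 in females. All genes came to 853 and 952 without *APOE3* replicates 30 and 33, and the related lists to 10, 9 and 11 without *APOE3* replicates 26, 30 and 33. None of the 8 called genes among the 44 changed sign. The sign turned with the cell cycle score for the uncalled Scarb2 (log2 fold change 0.0081), Lipa (0.0777), Glb1 (-0.0866), Psap (-0.00486), Asah1 (-0.0259), Ctsa (-0.0256), Ctsd (-0.0181), Ctsz (-0.0397), Grn (-0.00586), Tfeb (0.035), Atp6v0d1 (0.0156) and Atp6v1b2 (0.0651), and for Lmbrd1 (0.0138) of the related lists, which was called lower without the score. It turned with GC content and length corrected for Lamp2 (-0.0122), Glb1 (-0.00539), Asah1 (-0.0326), Atp6ap2 (-0.00598) and Atp6v1h (-0.0443), and with voom for Mitf (-0.0391) and Atp6ap1 (0.00254). With 1 library left out, Glb1 ranged from -0.0219 to 0.0379, Neu1 from -0.025 to 0.042, Mitf from -0.10 to 0.15 and Atp6ap1 from -0.0218 to 0.00385. The cause of these changes was not tested. No paired analysis was possible because the genotypes share no replicate numbers.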
